A study of Homo sapiens with 6 samples.

Results

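In HEK293T, a widely used cell line of human embryonic kidney origin, the HNRNPU family genes and the stretch after HNRNPU held 141 of the 34781 listed binding sites of USP39 (0.405%). The members are the sites whose central base lay in HNRNPU, HNRNPUL1 or HNRNPUL2 on the strand with most of that gene's sites, and the minus-strand sites of chromosome 1 between 244845200 and 244850444 that adjoin HNRNPU. HNRNPU held 95 of them, HNRNPUL1 18 and HNRNPUL2 3, and 25 lay downstream of HNRNPU. The genes and the window were chosen from these same sites, so their numbers and places are given as a description with no test.

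All cells were wild type and were irradiated with UV light of 254 nm, and USP39 was precipitated with an antibody against the protein itself. USP39 belongs to the tri-snRNP, a building block of the spliceosome. In iCLIP2, UV light joins protein to RNA and each binding site marks where such a contact was called. The 6 libraries came from a low and a high membrane region, 3 replicates each, but the values are those of 1 merged list. Which libraries were merged is not stated in the labels. No site has a value per library, the score of every site is 0, the read depth is unknown, and no replicate error can be given, so the low and high regions were not compared and no order of genes below is tested against replicate spread. Cells kept from UV light, the negative control named in the design, were not analysed here, and RNA abundance was not measured, so the part of either in any number of sites was not tested.

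HNRNPU, also called scaffold attachment factor A, is an abundant nuclear protein that binds RNA through an arginine- and glycine-rich tail and chromatin through its SAP domain. It is known for a part in chromatin organisation, in the tethering of XIST RNA and in splicing. HNRNPUL1 and HNRNPUL2 are its paralogs; HNRNPUL1 was described as a partner of the adenovirus E1B protein, and both have been linked to the response to DNA breaks.

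Of the family's sites, only 1 had its whole neighbourhood in the RefSeq promoter sequences (GRCh38.p14), which reach 250 bases before and 50 bases after a gene start. This was the first site of HNRNPUL1. A further site, 1 nt before the annotated start of HNRNPU and so not a member, was covered as well. Their sequences are shown because they are the sites nearest to the gene starts, which are discussed with the positions below. Each is read 5′ to 3′ on the strand of the site, with the 5 bases of the site in capitals and 10 bases on each side, at chr19:41265026-41265050 (plus strand) and chr1:244864532-244864556 (minus strand).
HNRNPUL1 first site: aggtgagggaCGGGGgtggcgggga
HNRNPU start site: gccgctcctgCGAGAggacgttgcg
The HNRNPUL1 window was rich in G, with 17 G among its 25 bases. Of the 894 sites of the whole list that had such a window, 0.783% held as many G. The HNRNPU window held 10 G, and 20.7% of the 894 held as many. Neither site held a T in its 5 bases, whereas T made up 48.5% of the site bases and 24.9% of the flanking bases over the 894 sites. How many of the 894 sites lacked a T was not counted. Those windows lie near gene starts only and are not a sample of the whole list.

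HNRNPU was among the genes with the most USP39 sites. It lies on chromosome 1 from 244850297 to 244864543, on the minus strand, and its 95 sites lay on that strand with 0 on the plus strand. The first site was centred 59 nt from the annotated start, at 244864484, and the last lay 149 nt from the annotated end, at 244850446. The 95 sites gave it rank 10 among the 4629 protein-coding genes with at least 1 site. By the same count, 23.1% of the 20056 protein-coding genes in the table had a site, and those that did had a median of 3. The genes next above it were PRRC2B with 104 sites, and HNRNPH1 and SLIT2 with 106 each. Next below were SRRM2 with 94 and HUWE1 with 93. These neighbours differ by few sites, and without replicates their order is not established.

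The number of sites in HNRNPU was high for the length of the gene. Per kb of gene span, introns included, HNRNPU had 6.67 sites. The median over the 2558 protein-coding genes with 3 or more sites was 0.323, and HNRNPU ranked 58 of these. Compared with genes between 0.8 and 1.2 times its length, 310 in all with 3 or more sites, HNRNPU ranked 2. IRS4, a signalling adaptor gene, had 180 sites in that group and SFPQ, a paraspeckle protein gene, 81, while the median was 6.

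Within the family the 3 genes differed widely. HNRNPUL1, on the plus strand of chromosome 19 from 41262557 to 41307787, had 18 sites, or 0.398 per kb. HNRNPUL2, on the minus strand of chromosome 11 from 62712630 to 62727457, had 3 sites, or 0.202 per kb. HNRNPU and HNRNPUL2 have nearly the same span, 14247 and 14828 nt, and so 95 sites stood against 3 in almost equal lengths. The density in HNRNPU was 16.8 times that in HNRNPUL1 and 33.0 times that in HNRNPUL2. HNRNPUL1 ranked 451 by sites among the 4629 genes and HNRNPUL2 2109, a place it shared with all genes of 3 sites (450 in number). In each gene the strand of the sites was the annotated strand, and the opposite strand held 0 sites. The pseudogene HNRNPUP1 on chromosome 14 held 0 sites.

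**Figure D1:**
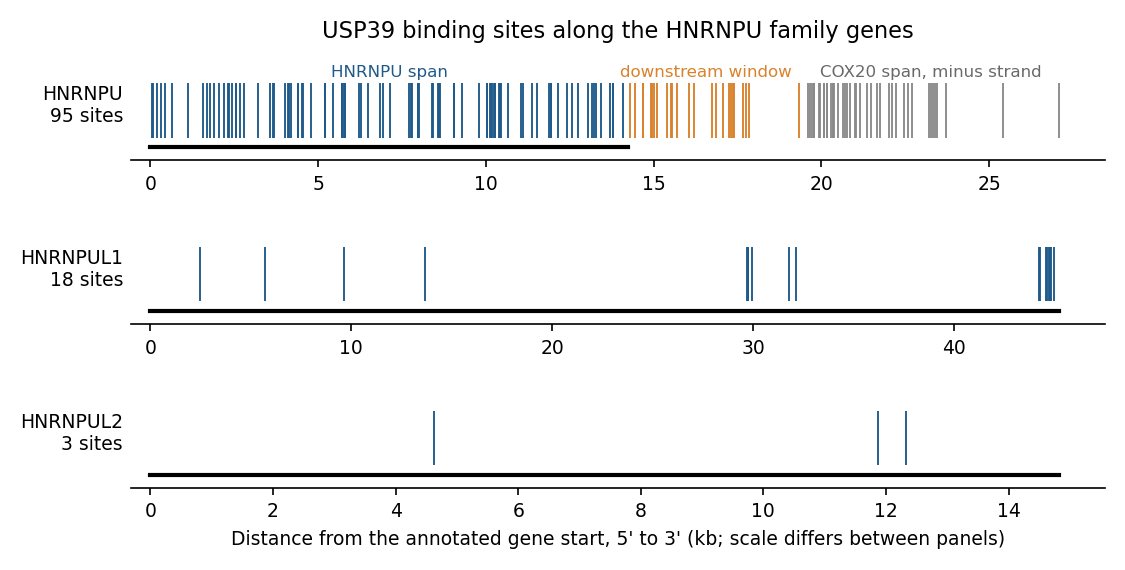
Each vertical line is 1 binding site, placed by its distance in kb from the annotated start of HNRNPU, HNRNPUL1 or HNRNPUL2, with the gene span as a black bar and a separate scale in each panel. In HNRNPU the 95 sites fill the span, the 25 downstream sites (orange) follow after the gene end, and 41 minus-strand sites (grey) lie in the span of COX20; HNRNPUL1 has 18 sites in separate groups and HNRNPUL2 has 3.

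Sites ran along the whole of HNRNPU rather than gathering at its end. In 10 equal parts of the span, from 5′ to 3′, the numbers were 7, 13, 8, 8, 10, 9, 7, 16, 8 and 9, the highest being in the part that holds SNORA100. The last part thus held 9.47% of the sites (Wilson 95% interval 5.06% to 17.0%, which covers counting error only and treats sites as independent), and the first part held 7.37%. Over the 30436 sites of coding genes holding at least 3, the last part held 23.6% and the first 10.9%. The largest distance between neighbouring sites in HNRNPU was 555 nt, from 244856845 to 244857400, and 2 of 94 distances were over 500 nt.

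HNRNPUL1 had another layout, with 8 of its 18 sites in the last part of the span (44.4%, Wilson interval 24.6% to 66.3%). These 8 lay between 1004 and 243 nt from the annotated end, at 41306783 to 41307544. A second group of 4 sites lay within the seventh part, at 41292248, 41292277, 41292307 and 41292508, followed by sites at 41294340 and 41294672. Only 4 sites lay in the first 4 parts, at 41265038, 41268239, 41272215 and 41276231. Between the last of these and the next site was the largest gap, of 16017 nt. The last site, at 41307544, also lies in the span of LOC105372401, a lncRNA gene annotated on the minus strand. Exons are not in the gene table used, so groups of sites could not be assigned to exons, introns or untranslated regions.

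The first site of HNRNPUL1, whose G-rich sequence is shown above, lay between annotated starts of this gene. RefSeq gives 3 starts, at 41262557, 41264372 and 41265081. The site at 41265038 was 666 nt past the second and 43 nt before the last, so it lies outside transcripts that begin at the last start. In HNRNPU, which has 1 start in the table, the site shown above was centred on 244864544, 1 nt before the annotated start, and its 5 bases span that start. It falls out by the rule on the central base, as the nearest site outside the gene, and the nearest inside is at 244864484. Both also lie in the span of LOC124904588, a protein-coding locus that begins at 244864482 and held 2 sites in all.

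HNRNPUL2 had sites at 62722832, 62715594 and 62715135, which lie 4625, 11863 and 12322 nt from its annotated start. The last part of the span held 0 of the 3 sites, for which the Wilson interval reaches 56.1%. Each of the 3 also lies in the read-through gene HNRNPUL2-BSCL2, which runs on into BSCL2, the gene of the lipid droplet protein seipin. This locus held 5 sites on the minus strand, 2 of them in BSCL2 itself, so the 3 sites cannot be assigned to HNRNPUL2 RNA alone.

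**Figure D2:**
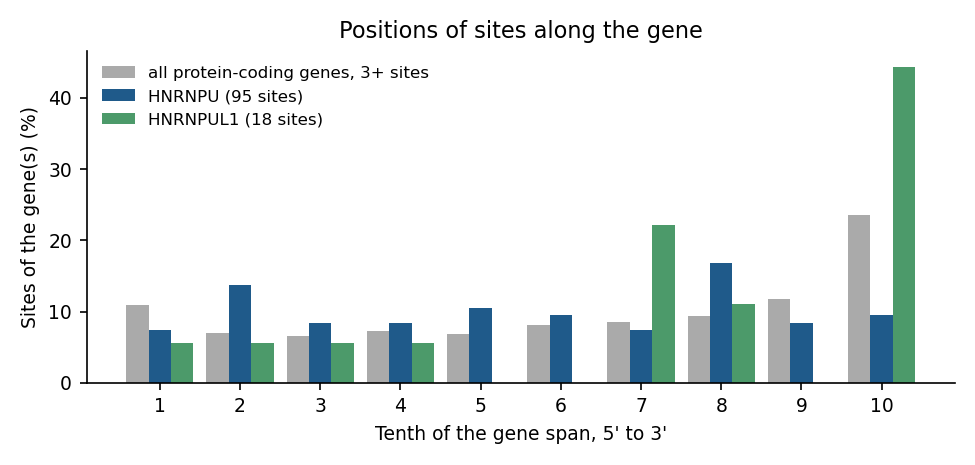
Percent of sites in each of 10 equal parts of the gene span, from 5′ to 3′, for HNRNPU (95 sites), HNRNPUL1 (18 sites) and all coding genes holding at least 3. HNRNPU ranges from 7.37% to 16.8%, the highest in part 8, and has 9.47% in the last part, while HNRNPUL1 has 44.4% there and all genes 23.6%.

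Sites in HNRNPU stood close to each other. The median distance between neighbours was 106.5 nt, against 201 nt in HNRNPUL1 and 3848.5 nt in HNRNPUL2. The median of this value over the 2558 genes was 526.5 nt. Distances shrink as sites per kb rise, so the spacing and the share of close neighbours are not traits apart from the density given above. Crowding beyond that density was not tested. In HNRNPU 45 of 95 sites had a neighbour within 50 nt (47.4%, Wilson interval 37.6% to 57.3%), in HNRNPUL1 7 of 18 (38.9%, interval 20.3% to 61.4%) and in HNRNPUL2 0 of 3. Over all sites of the 2558 genes the share was 36.7%. The intervals treat sites as independent, although a close pair counts both of its sites, so they are not a test against that share. There were 2 abutting pairs of sites in HNRNPU, at 5 nt between centres, and 8 distances under 10 nt. HNRNPUL1 had 0 distances under 10 nt, its smallest being 29 nt.

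The most crowded 1000 nt of HNRNPU held 14 of its sites (14.7%), centred from 244853897 to 244854736, and this stretch contains SNORA100. SNORA100 is a small nucleolar RNA gene of 131 nt, from 244854087 to 244854217. It held 4 sites, centred on 244854098, 244854110, 244854121 and 244854167. That is 30.5 sites per kb, compared with 6.45 per kb over the rest of HNRNPU, which had 91 sites. The 300 nt on its 5′ side on the minus strand held 8 sites, so the crowding was not confined to SNORA100. The 300 nt on its 3′ side held 1. Sites of the snoRNA and of the HNRNPU transcript that contains it cannot be told apart in this list. Over the whole list, 247 of 1199 snoRNA genes had a site and 58 had 4 or more.

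Beyond the annotated end of HNRNPU the minus-strand sites went on. The window held 25 sites in 5097 nt, or 4.90 per kb, and 0 on the plus strand. The first was 47 nt past the end, at 244850250, and then came sites at 201, 428, 434, 676 and 696 nt. The last site inside the gene and the first outside were 196 nt apart, and 30 of the 94 distances within the gene were at least as wide. The median distance between the 25 sites was 137 nt, close to the 106.5 nt of the gene. Within the window 24 sites lay up to 3582 nt past the end, and after a gap of 1513 nt the remaining site lay at 244845202, 5095 nt past the end. The 25 sites lie in no gene of the table and made up 3.63% of the 689 such sites in the list.

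No other protein-coding gene had as many sites just past its end. Within 5 kb past the end, on the strand of the gene's sites and in no gene of the table, HNRNPU had 24 sites and ranked 1 of 2558 genes. Of these genes 2.27% had at least 1 such site and 0.0782%, which is 2 genes, had 10 or more. The other was WDR4, whose protein acts in tRNA methylation, with 13. Next came HOXD11, a homeobox transcription factor gene, with 7, and then HOXD10, RBM15 and GNG13 with 5 each. RBM15 encodes an RNA-binding protein of the m6A writer complex. The sites of GNG13 lie opposite to its annotated strand. HNRNPU was chosen for this pattern, so its place in this order is a description.

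The window stops 137 nt short of the neighbouring gene. COX20, an assembly factor gene of cytochrome c oxidase, spans 244835306 to 244845063 and is annotated on the plus strand. All 41 sites in its span lay on the minus strand, the strand of HNRNPU, and 0 on the plus strand. The nearest of them to the window was at 244844950, 252 nt from the last member at 244845202. From there 39 sites followed over 4127 nt, down to 244840824, at 9.45 per kb and with a median distance of 88 nt. The 39 sites end 9473 nt past the annotated end of HNRNPU. Only 2 minus-strand sites lay further on in COX20, each after a gap over 1000 nt, at 244839120 and 244837455.

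From the HNRNPU start to 244840824, a stretch of 23720 nt, the minus strand held 159 sites, or 6.70 per kb. HNRNPU itself held 59.7% of them, the window 15.7% and the COX20 span 24.5%. In steps of 1 kb from the start, the numbers ran from 4 to 14 except for 1 step with 0, that between 18 and 19 kb, which lies in the gap of 1513 nt. The highest step, with 14, lay between 20 and 21 kb, in the span of COX20. The next, with 13, lay between 10 and 11 kb and contains SNORA100, which held 4 of the 13. The plus strand held 0 sites in each of these steps.

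**Figure D3:**
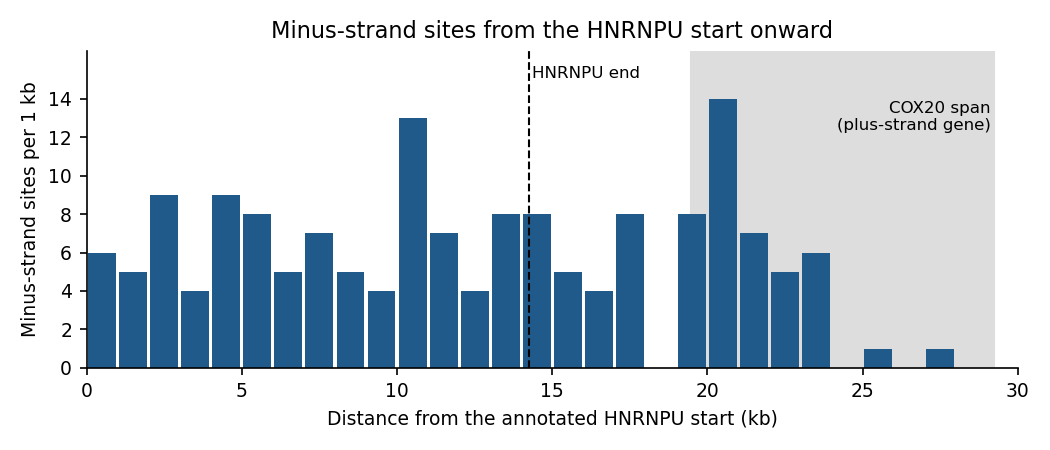
Bars give the minus-strand sites in steps of 1 kb from the annotated HNRNPU start, with the annotated end of HNRNPU as a dashed line and the span of COX20, annotated on the plus strand, in grey. The bars stay between 4 and 14 past the gene end and into the COX20 span, apart from 1 empty step between 18 and 19 kb, and fall to 0 or 1 after 24 kb.

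Genes whose sites lay mostly opposite to the annotated strand were few. Of 1497 coding genes that had at least 5 sites and a known strand, 44 (2.94%) had their sites mostly on the opposite strand. In 38 of the 44, each of those sites also lay in the span of another gene. COX20 and SLC16A4 were the 2 genes in which every such site lay in no other gene, with 41 and 19 sites. VPS9D1 had 42 opposite-strand sites, of which 22 lay in no other gene. The table lists HNRNPU-AS1 among the older names of HNRNPU. Whether the sites of the window and of the COX20 span belong to longer RNAs from HNRNPU or to other minus-strand RNAs was not tested. Sites on the strand of a gene were also counted up to 10 kb past its end, if no gene annotated on that strand held them. HNRNPU had 64, followed by WDR4 with 16, ZNF460 with 15, and HOXD11 and RBM15 with 12 each. RBM15 ends at 110346677 on chromosome 1, and SLC16A4, with its 19 opposite-strand sites, begins further on at 110362857. Whether those sites belong to RNAs from RBM15 was not tested.

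In the wider group of hnRNP genes, HNRNPU stood near the top, and HNRNPUL1 and HNRNPUL2 had fewer sites than the median of the list. The hnRNP list has 29 genes of nuclear RNA-binding proteins that package and process transcripts, and 26 had a site (89.7%, against 23.1% of all protein-coding genes). Their expression was not measured. The list's median was 24 sites, and 1.77 sites per kb, and over all protein-coding genes both medians were 0. The most sites were in HNRNPC with 108, HNRNPH1 with 106, HNRNPU with 95 and HNRNPA2B1 with 82. HNRNPA1L2, HNRNPLL and PTBP3 had 0. By sites per kb HNRNPU ranked 3 of 29 with 6.67, after HNRNPA1 with 7.70 and HNRNPA2B1 with 7.58. HNRNPUL1 ranked 19 by sites and 22 by density, and HNRNPUL2 ranked 24 and 23. The 3 family genes held 12.1% of the 961 sites of the list.

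**Figure D4:**
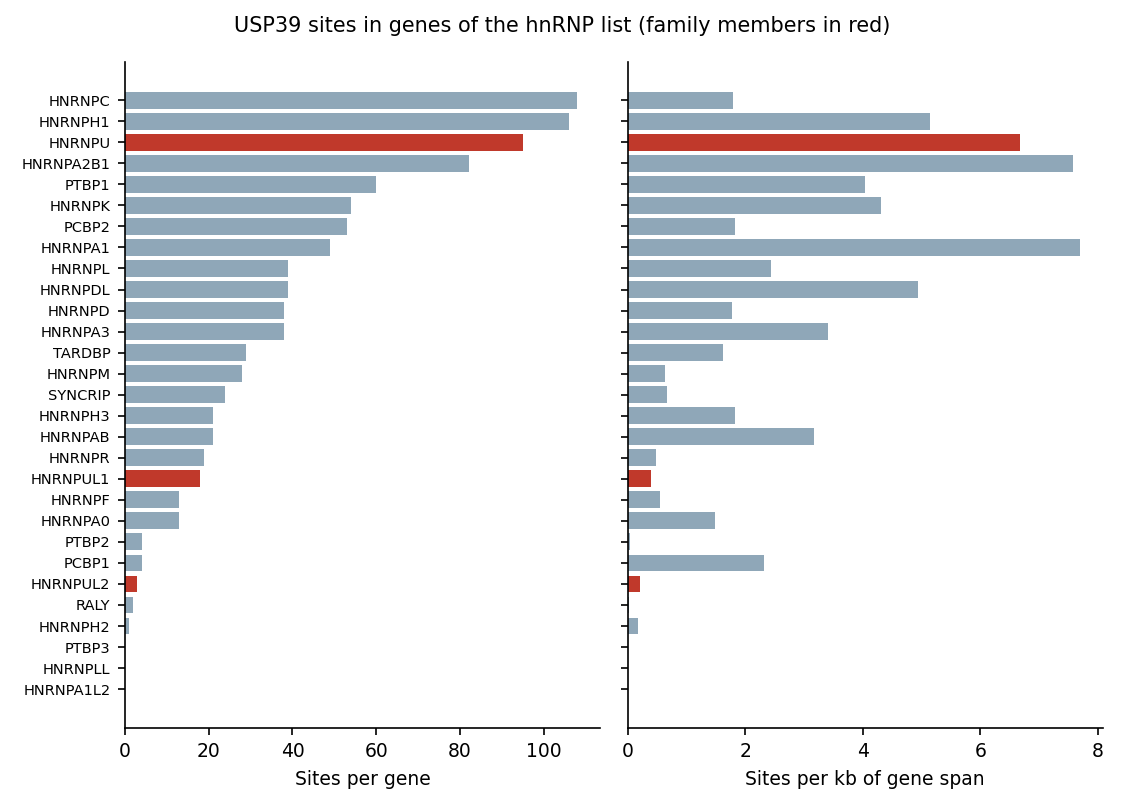
Bars give the number of sites (left) and the sites per kb of gene span (right) for the 29 genes of the hnRNP list, ordered by number, with the HNRNPU family in red. HNRNPU ranks 3 on either scale with 95 sites and 6.67 per kb, while HNRNPUL1 (18 sites) ranks 19 and HNRNPUL2 (3 sites) 24 by number.

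A list drawn up for nuclear scaffold and chromatin architecture, the setting in which HNRNPU is best known, had a lower median than the hnRNP list. The median of protein-coding genes at large was 0 because most had no site. A list median above it thus says little beyond the share of genes with a site. Of its 20 genes 17 had a site (85.0%, against 23.1% of all protein-coding genes). The medians were 4 sites and 0.0856 sites per kb, where both medians over all protein-coding genes were 0. The list is mixed and also holds genes of RNA-processing proteins, such as RBMX and ACIN1, so these values are not those of scaffold proteins alone. MATR3, a nuclear matrix RNA-binding protein whose span also holds SNHG4 and snoRNA genes, had 63, RBMX, an hnRNP-like splicing protein, 41, SMC1A of cohesin 34 and ACIN1, a protein that joins exon junction complexes, 24. SATB1, SLTM and ZC3H13 had 0. SAFB and SAFB2, which like HNRNPU were named for binding scaffold attachment DNA, had 5 and 2.

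The genes whose layout was most like that of HNRNPU were RBM14, HNRNPA1 and EIF4G2. Likeness was the sum of absolute differences between the shares of sites in 10 equal parts of the span, over 194 other protein-coding genes with 30 or more sites, and lower values are more alike. RBM14, a paraspeckle protein gene with 39 sites, had 0.293, and HNRNPA1 with 49 sites and the translation factor gene EIF4G2 with 62 sites had 0.321 each. The median over the 194 genes was 0.713. Their shares in the last part were 5.13%, 8.16% and 12.9%, and their densities 2.93, 7.70 and 5.22 sites per kb. The measure rests on 1 merged list, and counting error in the shares adds to it, more so in genes with fewer sites. How much of each value is counting error was not tested, so the choice and order of these genes are not established.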

How the data were processed

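The submitters' processing notes name UMI-tools 1.1.2, STAR 2.7.3a, FastQC 0.11.9, bedtools 2.29.2 and SAMtools 1.10, and the build GRCh38.p12; their roles, the site caller and its filters are not stated. The authors deposited 1 merged BED list of sites 5 nt wide, whose score is 0 throughout, so no depth, interval or test over libraries can be had from it.

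Coordinates count from 1. Gene spans and names came from a RefSeq table (GRCh38.p14) and strands from its promoter table. Chromosome coordinates of these patch releases were taken as the same. A site belonged to every gene whose span held its central base, on the strand that carried most sites in that gene, so a site in overlapping genes counted for each. Protein-coding genes include mitochondrial ones. Members, lists and comparisons were chosen with earlier results of these data known. Named genes are the members, genes that overlap or adjoin them, those next in the order of sites, those with the most or 0 sites in the lists, the most alike layouts, and those with the most sites past the end; IRS4, SFPQ, HNRNPA2B1, SAFB, SAFB2, VPS9D1, SLC16A4 and ZNF460 were named after their values were seen. Of the hnRNP list, 1 gene is not reported here and was left out of the list and of its counts. The planned protein comparison was not run. Scripts ran in Python 3.11.15 (pandas 2.3.3, numpy 2.4.6, matplotlib 3.10.9). On simulated data, planted site counts and strands were recovered in 200 of 200 genes.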

Additional observations from a re-analysis of the deposited data

Results flagged for a closer look

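The span of COX20, which is outside the HNRNPU family and the downstream window, held 41 minus-strand sites and 0 plus-strand sites. It stood out because these sites lie in data that the family's membership does not use, on the strand opposite to the annotated gene. They follow the sites downstream of HNRNPU on the same strand. The nearest lies 252 nt from the last member, which itself comes after a gap of 1513 nt. The origin of the sites in the COX20 span was not tested.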

How the results depend on the processing

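Of 43 alternatives, 36 stayed within 1.5 times the value reported or, for shares, within its Wilson interval. Some of the 36 could not move, such as counting both strands, since the opposite strand held 0 sites in each gene. The same holds for joining the sites of HNRNPUL2, which lie at least 459 nt apart. With sites in another gene left out, HNRNPUL2 kept 0 of 3 sites, since the read-through gene covers it. Over the stretch from its first to its last site the density of HNRNPUL2 was 0.39 per kb. The 25 sites downstream of HNRNPU became 64 within 10 kb past the end, because that window includes the COX20 span. With the HNRNPU span extended to the last downstream site, 3.33% of sites lay in the last 10%. The share of HNRNPU sites with a neighbour was 34.7% within 20 nt and 71.6% within 100 nt, and that of HNRNPUL1 0% within 20 nt. With sites within 50 nt joined, HNRNPU had 69 sites and ranked 11. HNRNPU ranked 1 by sites past the gene end in each of the 3 alternatives run, 1 of which was chosen after seeing the data, as was the rank by annotated strand. No paired analysis was possible because the list is merged and holds no column per replicate, and for the same reason no library could be left out. Read depth is unknown, so it cannot be said whether genes with few or 0 sites lacked contacts or reads.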
